A study of Drosophila melanogaster with 2 samples.

Results

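The 10 genes examined here drive entry into and exit from mitosis, and binding of the CG3032 protein was read at each of them: CycA, CycB, CycB3, Cdk1, stg, fzy, fzr, polo, aurA and aurB. They are a set defined by function, 10 of the 13945 protein-coding genes annotated on chromosomes 2, 3, 4 and X, and all 10 symbols matched the annotation. A ChIP-seq summit, the point of highest enrichment in a peak, was counted for a gene when it lay inside the gene or within 500 bp of one of its transcription start sites (TSSs), and was called a promoter summit in the second case. The material was whole prepupae of Drosophila melanogaster aged 24 hours, of mixed sex, from 1 transgenic line that carries CG3032 with eGFP fused to its C-terminus, and the precipitation used an antibody against GFP. There was 1 group with 2 biological replicates, numbered 2 and 3, and no second condition. The labels do not name the promoter that drives the fusion, and binding in whole animals cannot be assigned to a cell type.

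Peaks came in 4 lists. The IDR list (8170 peaks, the authors' list thresholded by reproducibility between replicates) was the main one. The whole-series list, called on both replicates together, and the lists of replicate 2 and replicate 3 held 30000 peaks each. Signal is the authors' own value per peak on a scale not defined in the sources used here, so signals were ranked within a list only, rank 1 being the strongest. All 8170 IDR summits were also the 8170 strongest of the whole-series list, so membership was the same as a cut on whole-series signal. Being in the IDR list does not by itself show that a given peak recurred in both replicates. Read depth is unknown. IDR signals ran down to 150.5 with a median of 301.5, and the weakest listed peaks had a signal of 29.2 in the whole-series list, 17.6 in replicate 2 and 19.8 in replicate 3.

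As background, the kinase Cdk1 drives cells into mitosis when it is bound to a mitotic cyclin and when the phosphatase String, the fly Cdc25, removes its inhibitory phosphates. Polo and the Aurora kinases act on centrosomes, kinetochores and the spindle. Exit follows when the anaphase-promoting complex (APC/C), a ubiquitin ligase, is activated first by Fizzy, the fly Cdc20, and then by Fizzy-related, the fly Cdh1, and marks the cyclins for destruction. At the prepupal stage imaginal tissues hold dividing cells, while most larval tissues are polyploid.

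The DNA at 7 of the 9 IDR summits counted for these genes is shown first, because the counts rest on such positions. The 7 include the stg intronic summit, which is not a promoter summit. Each stretch is centred on the summit, reaches up to 40 bp to either side and is read 5′ to 3′ along the strand of the regulator gene, from the RefSeq copy of the Release 6 assembly, which has the dm6 sequence. Capitals mark letters of the TATA box (TATAAA), the CHR element (TTTGAA) or Motif 1 of the core promoter factor M1BP (GGTCACACT), on either strand. Their distance from a TSS was not considered, and none is shown to be a working element. Stretches inside annotated untranslated exons, those of the polo summit and the 3′ aurB summit, are not shown. That of fzr was shortened on its upstream side for the same reason, where the Pp2C1 gene ends.
Cdk1 (chr2L:10386456-10386536, minus strand): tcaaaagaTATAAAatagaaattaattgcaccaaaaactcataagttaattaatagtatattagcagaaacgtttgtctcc
stg intron (chr3R:29254540-29254620, minus strand): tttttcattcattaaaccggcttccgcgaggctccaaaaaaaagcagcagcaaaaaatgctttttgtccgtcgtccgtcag
CycB3 (chr3R:24870839-24870919, minus strand): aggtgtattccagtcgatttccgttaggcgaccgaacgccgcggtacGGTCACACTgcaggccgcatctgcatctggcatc
fzy (chr2L:16310798-16310878, plus strand): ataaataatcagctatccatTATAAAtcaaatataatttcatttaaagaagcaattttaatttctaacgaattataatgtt
fzr (chrX:4679941-4679987, minus strand): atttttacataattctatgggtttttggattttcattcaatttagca
aurA (chr3R:11962901-11962981, plus strand): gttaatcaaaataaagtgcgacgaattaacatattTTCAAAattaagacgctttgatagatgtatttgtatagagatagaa
aurB (chr2L:10858294-10858374, minus strand): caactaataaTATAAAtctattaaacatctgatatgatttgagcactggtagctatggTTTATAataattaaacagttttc
The stretches of Cdk1, fzy, fzr, aurA and aurB are rich in A and T, and that of CycB3 is not.

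An IDR promoter summit was found at 7 of the 10 regulators (70.0%, 95% exact interval 34.8 to 93.3, which covers counting over genes only): CycB3, Cdk1, fzy, fzr, polo, aurA and aurB. Over all protein-coding genes the share was 27.0%. With summits anywhere in the gene included, stg joined them, and 8 of the 10 had at least 1 IDR summit, against 32.0% of all protein-coding genes. CycA and CycB had none. The 10 regulators were chosen with earlier results of these data known, so these shares are a description and were not tested. The exact interval assumes genes drawn at random and independently, so it is no comparison with the 27.0%. The count of 7 became 4 with a TSS window of 200 bp (19.5% of all protein-coding genes), 3 among the stronger 4085 IDR peaks (14.8%) and 3 when each summit was given only to the nearest TSS (20.2%). These 10 genes had a median length of 3156 bp, against 2166 bp over all protein-coding genes, and a longer gene gives more room for a summit inside it. The 8 genes held 9 IDR summits in all, since aurB had a pair of them.

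**Figure D1:**
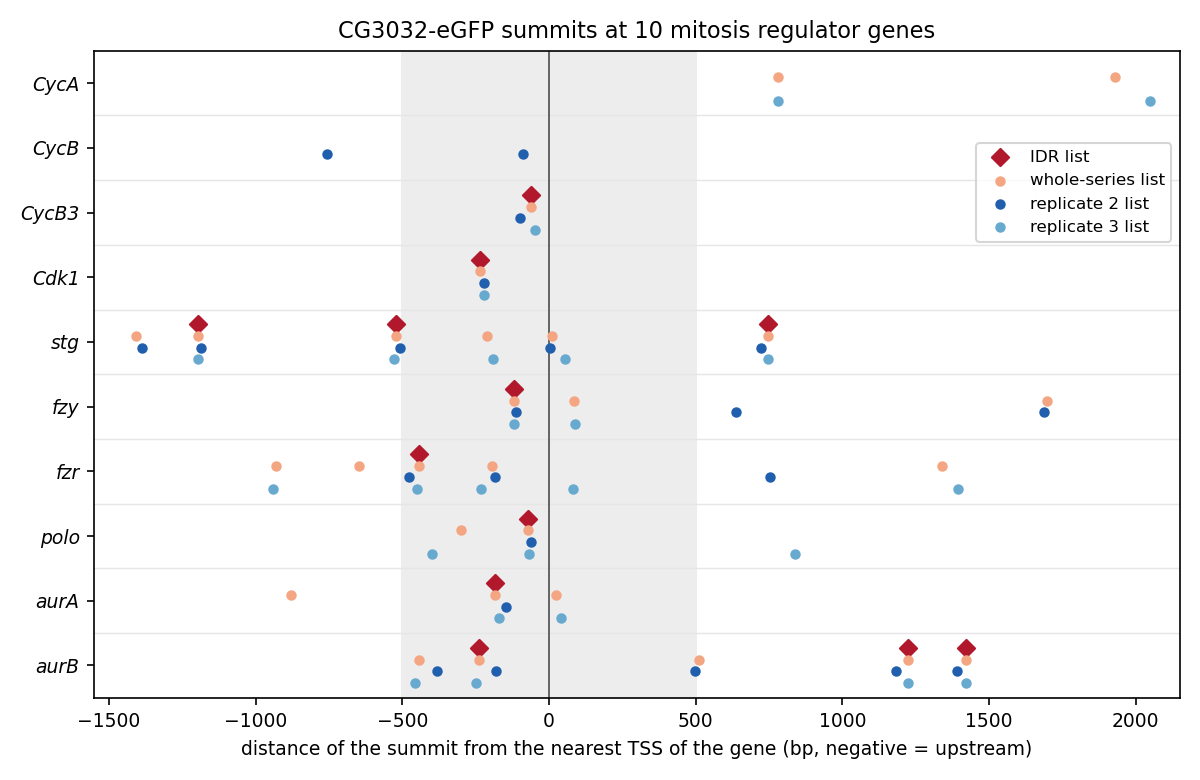
Position of every summit of the 4 lists at the 10 genes, as distance in bp from the gene's nearest TSS (x axis, negative values upstream; farther summits are cropped), with 1 row per gene. Diamonds are IDR summits, circles the other lists, and the grey band is the 500-bp promoter window. CycB3, Cdk1, fzy, polo, aurA and aurB have an IDR summit in the band at −63, −234, −118, −71, −183 and −240 bp, fzr has one at −444 bp, and stg has one just outside at −522 bp.

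The 3 mitotic cyclin genes differed from each other. CycB3, which encodes the B-type cyclin that acts late in mitosis, lies at 3R:24867934-24870816 on the minus strand and had an IDR summit at 3R:24870879, −63 bp from its TSS (negative values are upstream). Its signal was 176.2, rank 7057 of 8170. The matched summits lay at −100 bp in replicate 2 (signal 46.7, rank 9021) and at −47 bp in replicate 3 (signal 130.5, rank 6626). This was a weak IDR peak, among the 8170 strongest of replicate 3 but not of replicate 2. No other gene had a TSS within 500 bp of it, and the nearest other TSS was 5466 bp from that of CycB3.

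CycB, a B-type partner of Cdk1 at mitotic entry, lies at 2R:22803521-22806948 on the minus strand with 3 annotated TSSs. It had a summit in 1 of the 4 lists only. In replicate 2 this lay at 2R:22807038, −90 bp from the most upstream TSS, with a signal of 52.3 and rank 8145 of 30000. Neither replicate 3 nor the whole-series list had a summit by the rule at CycB. The nearest IDR summit was 3333 bp downstream of a CycB TSS, beyond the end of the gene, at 2R:22802970 (signal 1045.8, rank 787).

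CycA, the A-type cyclin that flies need for mitosis, lies at 3L:11826719-11833578 on the minus strand and has 1 TSS position. It had no promoter summit in any list. A summit in an intron, 781 bp downstream of the TSS at 3L:11832797, was present in the whole-series list (signal 100.1, rank 11663) and in replicate 3 (signal 69.1, rank 11998). It was not in the IDR list, and replicate 2 had no summit in the gene. Weaker summits lay farther inside the gene in both of these lists. The nearest IDR summit lay 10968 bp downstream of the TSS. Of the cyclin genes, CycB3 thus carried a summit in both replicates, while CycA and CycB each had one in a single replicate.

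Cdk1 itself and its activator stg carried stronger peaks. Cdk1 lies at 2L:10384739-10386262 on the minus strand, and its IDR summit at 2L:10386496 was −234 bp from the TSS. The signal was 491.1, rank 2381 of 8170. Replicate 2 had its summit at −222 bp (signal 223.8, rank 1617) and replicate 3 at −221 bp (signal 249.2, rank 3346). The replicate summits were thus 1 bp apart. The same summit lay −166 bp from the TSS of mRpS7, a mitochondrial ribosomal protein gene on the opposite strand whose TSS is 400 bp from that of Cdk1.

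The string gene stg, at 3R:29251826-29255800 on the minus strand with TSSs at 29255800 and 29255325, had the strongest IDR signals of the set, but not in its promoter window. A summit in an intron at 3R:29254580, 745 bp downstream of the inner TSS, had a signal of 694.6 (rank 1530). It ranked 2226 in replicate 2 (signal 174.6) and 1277 in replicate 3 (signal 527.5). Upstream of the gene, a summit at 3R:29256322 had a signal of 1495.5 (rank 375) and lay −522 bp from the outer TSS, 22 bp beyond the 500-bp limit. It ranked 445 in replicate 2 (signal 469.2, −507 bp) and 368 in replicate 3 (signal 1030.4, −527 bp), the smallest difference of rank among the IDR summits at or near these genes. It was at −163 bp from the TSS of CG45544, a protein-coding gene on the opposite strand. Another summit, at −1198 bp (3R:29256998, signal 874.7, rank 1086), lay in an intron of CG45544. By the rule only the intronic summit counts for stg. Weak summits did lie in the stg promoter window, in the 5′ UTR. Measured from the inner TSS, the whole-series list had them at 10 bp (signal 79.4, rank 14032) and −213 bp (signal 51.9, rank 19485). From the same TSS, replicate 2 had one at 5 bp (rank 9363) and replicate 3 one at −190 bp (rank 11176). Replicate 3 had another at 56 bp from the outer TSS (rank 15767).

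**Figure D2:**
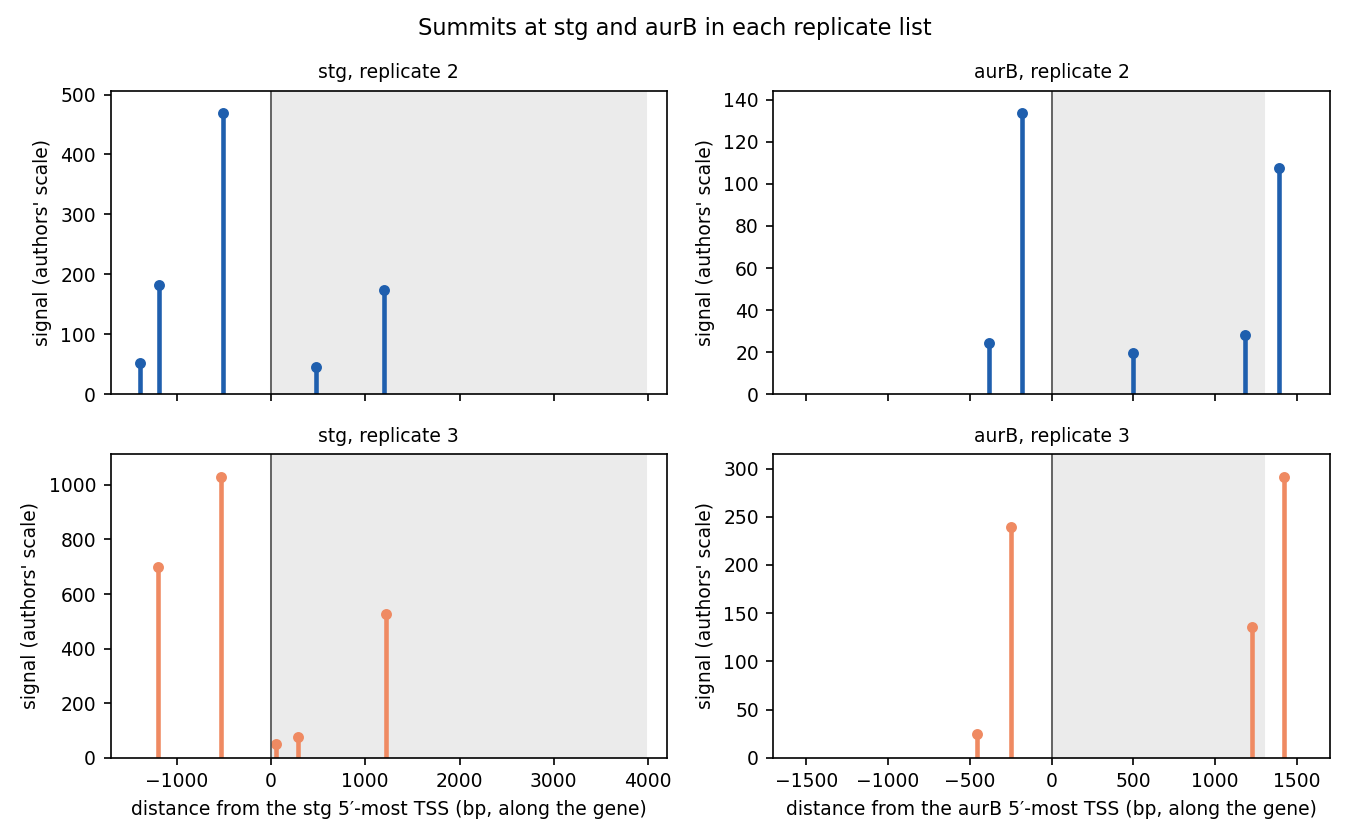
Signal (y axis, authors' scale, starting at 0 and different in each panel) of every summit of replicate 2 (top) and replicate 3 (bottom) at stg (left) and aurB (right), by distance in bp from the most upstream TSS along the gene. Grey marks the gene. At stg the strongest summit of each replicate is the one upstream of the gene, with signals of 469.2 and 1030.4. At aurB the promoter summit is the stronger of the tall pair in replicate 2 (133.7 against 107.4), and the summit past the end of the gene is the stronger in replicate 3 (291.7 against 239.7).

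Both APC/C activators in this set, fzy and fzr, had promoter summits. For fzy, at 2L:16310956-16313097 on the plus strand, the IDR summit at 2L:16310838 was −118 bp from the TSS and had a signal of 198.4 (rank 6306). Replicate 2 placed it at −111 bp (signal 60.7, rank 7039) and replicate 3 at −119 bp (signal 131.4, rank 6579). It was a weak peak with close ranks in both replicates. The divergent gene cni, which encodes the cargo receptor Cornichon, has its TSS 230 bp away, and the summit lay −112 bp from it, almost midway. A second summit inside fzy, 86 bp downstream of the TSS, was in the whole-series list (signal 83.0, rank 13506) and 88 bp downstream in replicate 3 (signal 79.4, rank 10643), and was not in the IDR list.

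For fzr, which has roles in mitotic exit and in the switch to endocycles, the gene spans X:4667290-4679537 on the minus strand, the longest of the set at 12248 bp. Its IDR summit at X:4679981 was −444 bp from the outer TSS, the farthest of the promoter summits, with a signal of 284.1 (rank 4365). It ranked 5191 in replicate 2 (signal 83.2, −477 bp) and 4036 in replicate 3 (signal 209.2, −449 bp). No other TSS lay within 500 bp. The summit was 7 bp beyond the 3′ end of Pp2C1, a phosphatase gene on the same strand that ends at X:4679988, so it lay between the end of one gene and the start of the next. The replicate 2 summit, at X:4680014, lay inside the end of Pp2C1. Weaker summits lay near the inner TSS of fzr in the other 3 lists, at −195 bp in the whole-series list (signal 78.3, rank 14199), −183 bp in replicate 2 (rank 11663) and −233 bp in replicate 3 (rank 14156).

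All 3 mitotic kinase genes other than Cdk1 had promoter summits, of unequal strength. For aurA, which encodes the Aurora kinase of centrosomes and spindle poles, the gene lies at 3R:11963124-11964826 on the plus strand and the IDR summit at 3R:11962941 was −183 bp from the TSS. Its signal of 563.4 (rank 2024) was the highest among the 7 promoter summits. It ranked 1570 in replicate 2 (signal 230.1, −145 bp) and 2380 in replicate 3 (signal 332.4, −171 bp). The divergent gene CG3281 has its TSS 319 bp from that of aurA, and the summit lay −136 bp from it.

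For aurB, the Aurora kinase of the chromosomal passenger complex, the gene lies at 2L:10856797-10858094 on the minus strand and is the shortest of the set at 1298 bp. The promoter summit at 2L:10858334 was −240 bp from the TSS and had a signal of 368.2 (rank 3338). It ranked 3087 in replicate 2 (signal 133.7, −182 bp) and 3485 in replicate 3 (signal 239.7, −249 bp), with ranks close to each other but summits further apart than at the other genes. The divergent gene Stam, an endosomal sorting adaptor, has its TSS 442 bp away and −202 bp from the summit. A second IDR summit in the 3′ UTR of aurB (2L:10856871, signal 195.9, rank 6386) lay −227 bp from the TSS of the next gene on the same strand, the palmitoyltransferase gene Dnz1. It ranked 6387 in replicate 3 (signal 135.2) but 16002 in replicate 2 (signal 28.1). A stronger summit 200 bp away, at 2L:10856671 (signal 384.8, rank 3186), lay −27 bp from the Dnz1 TSS and outside aurB.

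For polo, at 3L:20309654-20313466 on the plus strand, the IDR summit at 3L:20309976 lay inside the gene between its 2 TSSs, −71 bp from the inner one at 20310047, in the 5′ UTR of the longer transcript. Its signal of 170.4 (rank 7271) was the lowest among the 7 promoter summits. It ranked 6110 in replicate 2 (signal 70.6, −60 bp) and 9316 in replicate 3 (signal 92.0, −67 bp), so it was among the 8170 strongest in replicate 2 and not in replicate 3. No other gene had a TSS within 500 bp, and the nearest other TSS was 2004 bp from the outer TSS of polo.

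**Figure D3:**
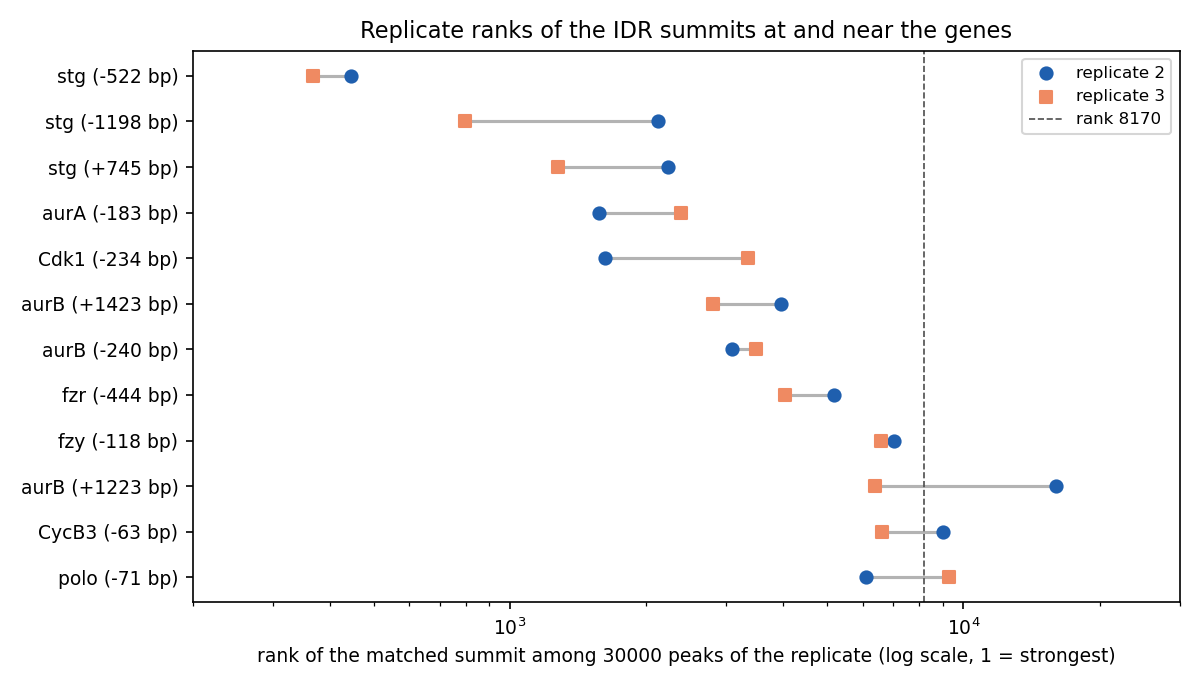
Rank (x axis, log scale, 1 is the strongest of 30000 peaks) of the matched summit in replicate 2 (circles) and replicate 3 (squares) for the 12 IDR summits at or near the regulators, labelled with the distance from the gene's nearest TSS in bp. The dashed line is rank 8170. The ranks of fzy are 7039 and 6579 and those of the stg summit at −522 bp are 445 and 368, while the aurB summit at 1223 bp has ranks 16002 and 6387.

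All 9 IDR summits counted for these genes lay within 100 bp of a summit in both replicate lists, which held for 91.0% of all IDR summits. Weak calls count as matches here. In replicate 2 the match of the 3′ aurB summit had a −log10 q-value of 0.57. That of CycB3 had 2.42 and the rest had 4.15. In all, 6 of the 9 were within 100 bp of one of the 8170 strongest summits of both replicates, against 72.1% of all IDR summits. The exceptions were CycB3 and the 3′ aurB summit in replicate 2 and polo in replicate 3. The IDR list was made from the replicate lists; a match is therefore partly a property of its making. In the full replicate lists, where weak peaks count too, 9 of the 10 regulators had a promoter summit in replicate 2 (48.6% of all protein-coding genes) and 8 of 10 in replicate 3 (50.3%). The whole-series list gave 8 of 10 (49.2%). Among the 8170 strongest peaks of each replicate, the counts were 7 of 10 in replicate 2 (27.7% of all protein-coding genes), with CycB and without CycB3, and 6 of 10 in replicate 3 (26.6%), with CycB3 and without CycB and polo. Cdk1, fzy, fzr, aurA and aurB were in both.

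Of the 7 promoter summits, 4 lay between the regulator and a divergently transcribed neighbour, those of Cdk1, fzy, aurA and aurB. Over all 3763 genes with an IDR promoter summit, the strongest one was shared with another protein-coding gene in 56.2%. At all 4 the summit was nearer to the TSS of the neighbour than to that of the regulator, by 6 bp at fzy, 38 bp at aurB, 47 bp at aurA and 68 bp at Cdk1. Another gene was nearer in 27.1% of the 3763 genes. When each summit was given only to the nearest TSS, 3 of the 10 regulators kept a promoter summit (CycB3, fzr and polo), against 20.2% of all protein-coding genes. The peak lists do not tell which of the paired genes a summit belongs to. The 3 unshared promoter summits had signals of 284.1, 176.2 and 170.4, and the shared ones 563.4, 491.1, 368.2 and 198.4, so the ranges overlap.

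Among all 3068 IDR promoter summits the 7 spanned much of the range. The summit of aurA was stronger than 74.3% of them, that of Cdk1 than 70.4% and that of aurB than 59.2%. The summit of fzr was stronger than 47.2%, and those of fzy, CycB3 and polo than 23.7%, 14.4% and 11.4%. The median signal of the 7 was 284.1, against 335.9 for the strongest promoter summit of each protein-coding gene with one. All 7 were upstream of the gene's nearest TSS, with a median of −183 bp. Over all genes with one, 3245 of 3763 were upstream and the median was −138 bp.

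Base composition at the 7 promoter summits was uneven. In the 201 bp around the summit, G+C content was 23.9% at aurB, 26.9% at Cdk1, 27.4% at fzr, 27.9% at aurA and 28.4% at fzy, all below the 34.3% median of IDR promoter summits. It was 40.8% at polo and 52.7% at CycB3, the last higher than at 96.5% of promoter summits. The intronic stg summit had 41.3%. The CycB3 stretch shown above holds the GGTCACACT letters of Motif 1, which occur at 3.32% of IDR promoter summits and in 2.48% of windows of the same length just upstream of TSSs.

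**Figure D4:**
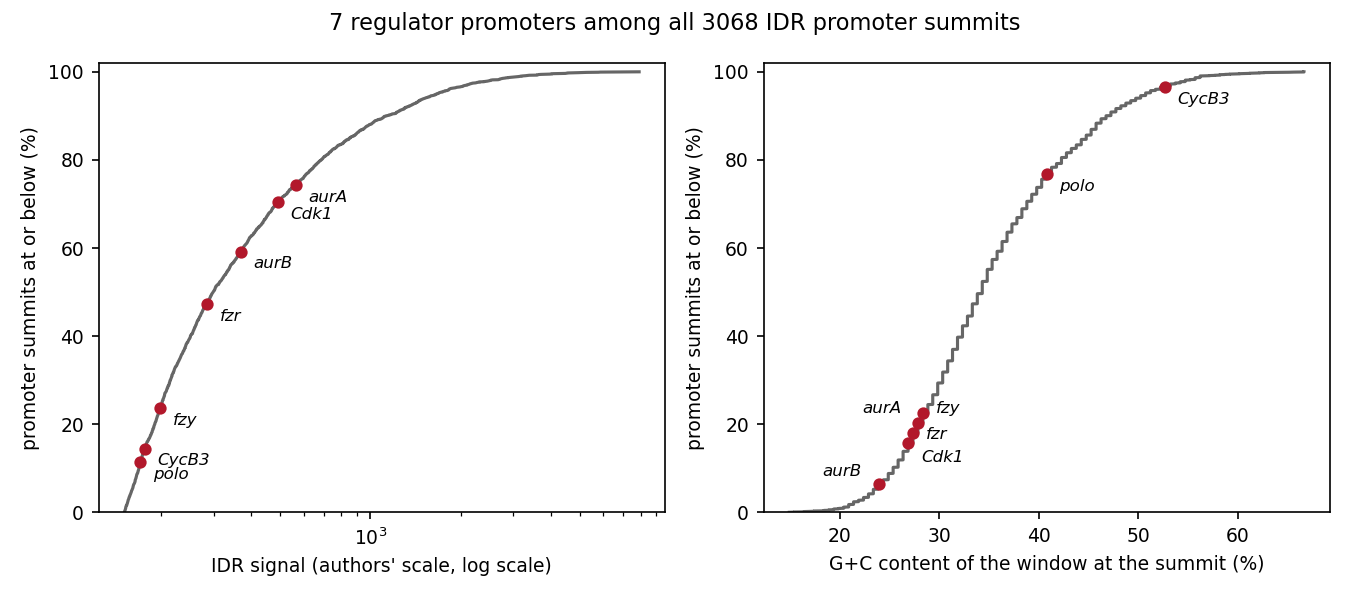
Cumulative share of the 3068 IDR promoter summits (y axis, %) by signal (left, authors' scale, log axis) and by G+C content of the same 201-bp window (right, %). Points are the 7 regulators with a promoter summit. Their signals run from 170.4 at polo to 563.4 at aurA. Of these, 5 lie between 23.9% and 28.4% G+C, and polo and CycB3 at 40.8% and 52.7%.

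Short promoter motifs, both general ones and ones known from growing and dividing cells, were searched in the same windows, on both strands. The DRE (TATCGATA), bound by the replication-related factor Dref, was at none of the 12 IDR summits at or near the regulators, and at 6.78% of all IDR promoter summits. TATAAA was within 100 bp of the summit at Cdk1, fzy, aurA and both aurB summits, and at 38.3% of IDR promoter summits. TTTGAA, the core of the CHR element of mammalian mitotic promoters, was at Cdk1, polo, aurA and the 3′ aurB summit, and at 31.2% of IDR promoter summits. The E2F-like letters TTTNNCGC were at the intronic stg summit and at the summit next to Dnz1 (13.9% of IDR promoter summits), and GAGAG was at CycB3 only (19.8%). These are matches of letters and not shown to be sites. Words of 8 bases were ranked by the excess of windows with the word at all other IDR summits over windows 500 bp away, divided by the square root of their sum, and the top 10 held only A and T. The first, AAAAATAT, was at 14.2% of summits and 4.73% of flanks, and in this set at polo and the 3′ aurB summit. Another, ATTTAAAA (12.4% and 4.14%), was at Cdk1, polo, the stg summit at −1198 bp and the summit next to Dnz1. It was the most frequent of the top 10 words at the 12 summits, while AAATATAT (12.4% and 4.24%) was at none of them.

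Genes of the machinery around these regulators were taken from a list of 87 written from general knowledge. An IDR promoter summit was present at 36 of the 87 (41.4%, 95% exact interval 30.9 to 52.4), against 27.0% of all protein-coding genes, and at 26 (29.9%) when each summit was given to the nearest TSS only, against 20.2% of all protein-coding genes under that rule. Their median signal was 272.8. The list of 87 was chosen with earlier results of these data known, and some of its genes share a summit. Its exact interval assumes random, independent genes and is no comparison with the 27.0%. No difference among the 10, the 87 and all protein-coding genes was tested. These 36 genes had 34 distinct summits, since Bub3 and Cap-D2 share one, as do Zw10 and Klp3A. The strongest promoter summit was shared with another protein-coding gene at 24 of the 36 genes, against 56.2% of all genes with one. At 10 of the 36 it was nearer to another gene, against 27.1% of all genes with one. Among these were gwl, mts, Bub3, Zw10, SMC2 and tum, so their summits cannot be assigned to them.

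The IDR counts of the small groups below stand beside 27.0% of all protein-coding genes, and no group was tested. Among upstream and downstream partners of Cdk1, the list of Cdk1 regulators and phosphatases had a summit at 7 of 12 genes. It was led by gwl, the Greatwall kinase that restrains the phosphatase opposing Cdk1 (signal 542.9, −227 bp), and by mts, the catalytic subunit of that phosphatase, PP2A (380.6, −406 bp), while the Cdk1-binding protein gene Cks30A had none. Of the subunits of the APC/C, 4 of 11 had one, with Cdc16 (2313.9, −85 bp) and APC4 (287.5, −197 bp) the strongest and APC10 without. The summit of Cdc16, shared with orb, ranked 124 of 8170, 113 in replicate 2 and 145 in replicate 3. It exceeded every IDR summit of the 10 regulators. The 3 other APC/C coactivators and inhibitors, cort among them, had none. Separase and securin genes had a summit at 1 of 3, pim (182.5), and not at Sse. Among the 8170 strongest peaks of replicate 2, 1 of those 3 coactivators and inhibitors and 0 of the 3 separase and securin genes had one, against 0 and 1 in those of replicate 3. The shares over all protein-coding genes were 27.7% and 26.6% in these replicates.

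For the remaining groups too, the IDR share over all protein-coding genes is 27.0%, and several counts are near it. Spindle checkpoint genes had a summit at 5 of 9, led by Bub3 (313.0, −133 bp) and BubR1 (222.2, −146 bp), with none at mad2. The summit of Bub3 is also that of Cap-D2. In this list 1 of the 9 genes, BubR1, kept one when each summit went to the nearest TSS, against 20.2% of all protein-coding genes. Of the partners of Aurora B in the passenger complex, Incenp (246.4, −119 bp) had one and aust had none (1 of 4). Cohesin genes had a summit at 2 of 6, SA1 (1057.6, −102 bp) and SMC1 (210.2), and not at dmt. Condensin genes had one at 3 of 7, led by SMC2 (988.5, −158 bp) and Cap-D2 (313.0), and not at Cap-D3. Kinetochore genes had one at 1 of 10, Mis12 (205.2, −214 bp), and not at cal1, which loads the centromeric histone. Among the 8170 strongest peaks of replicate 2, however, 4 of the 10 kinetochore genes had a promoter summit, against 1 of 10 in those of replicate 3. Over all protein-coding genes the shares were 27.7% and 26.6%. No replicate 3 summit lay within 100 bp of the Mis12 summit, although the Mis12 promoter held one of the 8170 strongest replicate 3 peaks. For the summit at Bub3 and Cap-D2 there was no replicate 3 summit within 100 bp either, and neither promoter held one of those peaks. Genes of spindle motors and cytokinesis had one at 6 of 12, led by tum (897.5, −250 bp) and sti (500.1, −47 bp), and not at asp. Centrosome genes had one at 6 of 10, led by the centriole duplication kinase gene SAK (789.3, −161 bp) and cnn (579.7, −225 bp), and not at bora, an activator of Aurora A.

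**Figure D5:**
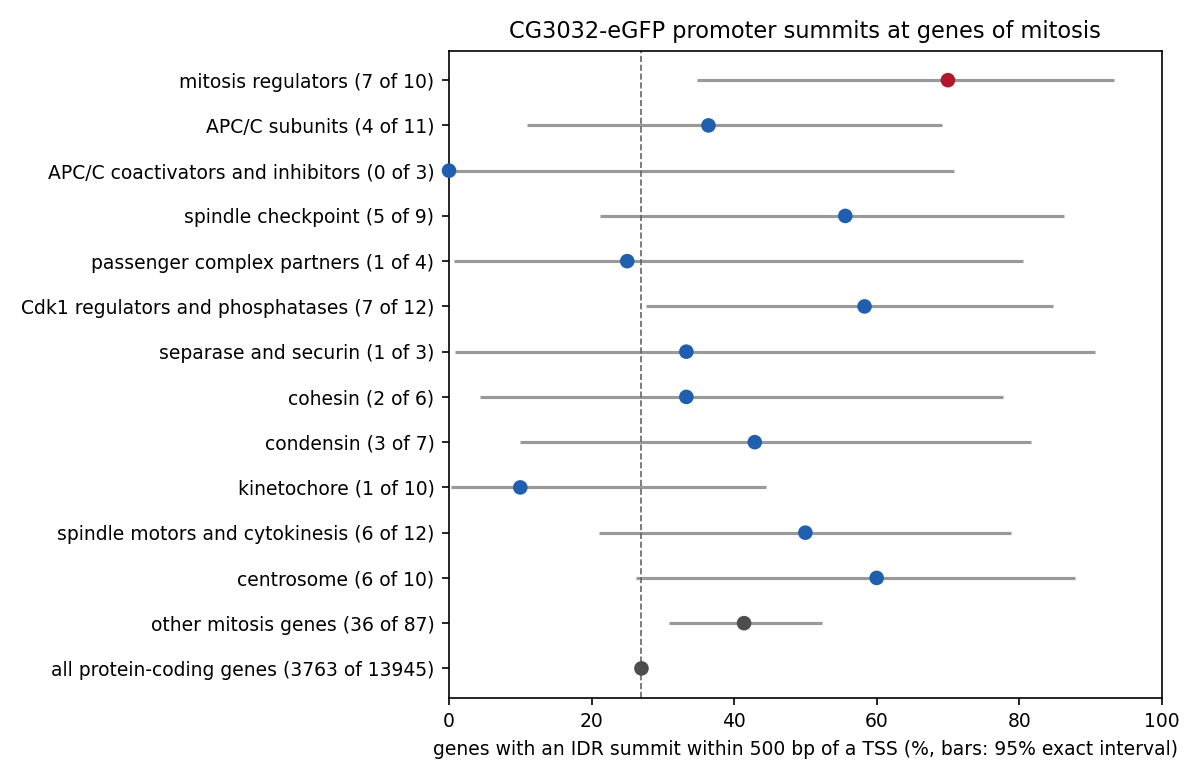
Share of genes with an IDR promoter summit (x axis, %) for the 10 regulators, 11 groups of other mitosis genes, all 87 of these and all protein-coding genes, with the count in brackets. Bars are 95% exact intervals over genes, and the dashed line is the 27.0% of all protein-coding genes. The listed genes were not drawn at random, so the bars are no test against the line. The regulators stand at 70.0%, the centrosome group at 60.0% and the APC/C subunits at 36.4%, and the intervals of the small groups overlap widely.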

How the data were processed

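The authors deposited narrowPeak lists on dm6 from 2 ChIP-seq replicates with fragments of 200 to 800 bp, per the labels. Each replicate list was called with a control, the whole-series list on both replicates, and the IDR list from the other 3, per the README files deposited with them. Not given in the sources used here: caller, aligner, settings, IDR threshold. Control reads were not analysed here. Each deposited signal value and −log10 q-value of a peak is the authors' own. The q-value is at its ceiling in all 8170 IDR peaks and was not used for ranking or counting.

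Summits are column 2 plus column 10, written 1-based. Genes and TSSs came from Ensembl BDGP6.54 release 115, whose 19607 TSS positions of protein-coding genes served as background, and sequence from RefSeq. No peak ran past the end of a RefSeq chromosome. Replicate summits were matched within 100 bp. With 1 group and no read counts, no test was made. The counting functions were tested on a small made-up example with a known answer. Motifs were searched within 100 bp of summits, and words were compared with windows 500 bp away. Scripts used Python 3.11.15, pandas 2.3.3 and scipy 1.17.1.

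The regulators and lists were chosen with earlier results of these data known, and the 8-base words after the data were seen. Of 88 listed other mitosis symbols, tpx2 had no match and Cdc26 was read as CG17343. Genes named are the 10 regulators, neighbours at their summits, and per group the 2 strongest genes and the alphabetically first without a summit. Pp2C1, beside the fzr summit, orb, beside that of Cdc16, and Zw10 and Klp3A, which share one, were named after their positions were seen.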

Additional observations from a re-analysis of the deposited data

How the results depend on the processing

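Of the 8 other settings tried for the 10 regulators with an IDR promoter summit (7 in the main setting), 5 gave 6 to 8. The count was 4 with a TSS window of 200 bp (CycB3, fzy, polo and aurA), 3 in the stronger 4085 IDR peaks (Cdk1, aurA and aurB) and 3 with the nearest gene only. Over all protein-coding genes these settings gave 19.5%, 14.8% and 20.2%. A window of 1000 bp and any overlap of the peak interval each gave 8, both adding stg, against 30.7% and 28.3% of all protein-coding genes. Without replicate 2 the count was 6 (26.6%) and without replicate 3 it was 7 (27.7%). Regulators with a summit in the gene or at a TSS numbered 8, and 4 among the stronger IDR peaks, where stg joined the other 3, against 19.6% of all protein-coding genes. With the nearest gene only, a setting added after the data were seen, it was 5 (CycB3, stg, fzr, polo and aurB), against 26.1%. Without one replicate this count was 7 or 8 (31.6% and 33.3%). Of the 9 IDR summits, 8 were matched in both replicates within 50 bp (9 within 200 bp), the exception being the aurB promoter summit. The other mitosis genes numbered 36, 28 with the 200-bp window, and 16 among the stronger IDR peaks, and 35 or 39 without one replicate. The 200-bp window and the stronger IDR peaks keep fewer of the same summits, and the nearest-gene setting keeps all of them but gives each to 1 gene. No paired analysis was possible because there was 1 group. Lists without read counts set no limit of detection. A gene without a summit, such as CycA at its promoter, is known only to have no listed peak there. The whole-series and replicate lists hold 30000 peaks each, and whether their length was capped is not given.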
